A study of Mus musculus with 24 samples.

Results

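Wild-type gastrocnemius muscle, a fast calf muscle of the hindlimb, was compared between mice made diabetic and mice whose hindlimbs were unloaded. The comparison holds 8 of the 24 RNA-seq libraries of the series, the 4 of WT diabetes and the 4 of WT unloading, chosen by their labels. The diabetic mice had received a single intraperitoneal injection of streptozotocin, which destroys the insulin-producing beta cells, at 150 mg per kg body weight, and were sampled 14 days later. The unloaded mice had been suspended so that the hindlimbs bore no weight for 7 days. All of these mice were C57BL/6 with the genotype Notch2f/f, so both groups carried floxed Notch2 alleles with no Cre recombinase. WT controls of the same genotype (4 libraries) are given as a level to read the values against, and they enter the estimate of spread, which pools all 24 libraries. The same 2 conditions were also measured in Notch2-mKO mice, Mlc1fCre/+;Notch2f/f, which carry Cre from the Mlc1f locus of skeletal muscle fibres on top of the floxed alleles, with 4 libraries each. Age and sex are not given in the labels. The conditions differ in duration as well as in kind, so treatment and duration cannot be told apart.

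Both conditions shrink muscle fibres. Insulin deficiency removes the main signal for glucose uptake and protein synthesis, frees fatty acids from fat tissue and raises circulating glucocorticoids, and fatty acids arriving in muscle activate nuclear receptors of the PPAR family that switch on genes of fatty acid uptake and oxidation. Unloading removes mechanical tension, and it is known for a shift of slow fibres towards faster myosins. Wasting in either case is classically attributed to ubiquitin ligases, chief among them Fbxo32 (atrogin-1) and Trim63 (MuRF1), which mark muscle proteins for the proteasome.

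The 8 libraries held 37135621 to 56369917 estimated counts each, and replicates within a group correlated at 0.969 to 0.987 across genes (Pearson's r of log2 CPM, the depth-scaled count after TMM scaling). Whether the 4 libraries of a group are 4 mice is not stated in the labels, and p-values measure only the spread among libraries, which may be technical. Fibre genes marked every library as muscle, since the 10 skeletal muscle fibre markers summed to between 179890 and 240290 CPM in WT diabetes, 179360 to 232540 CPM in WT unloading and 257400 to 315220 CPM in WT controls. WT unloading replicate 1 and WT diabetes replicate 3 stood apart from their groups for several genes of protein breakdown (Fbxo32 in both, proteasome genes in the unloaded library), and results whose call, direction or size changes most with either are also given without it. The GC balance of the libraries, the mean log2 level of AT-rich minus GC-rich genes, overlapped between WT diabetes (-0.37 to -0.04) and WT unloading (-0.22 to -0.06) but not with WT controls (-1.47 to -0.75). Differences from control given below therefore move with that balance, and its part in them was not tested. In bulk tissue, fewer cells of a type and less RNA per cell cannot be told apart.

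Of 13048 genes tested, 302 (2.31%) were higher and 162 (1.24%) lower in WT diabetes than in WT unloading at a Benjamini-Hochberg adjusted p under 0.05 in edgeR's quasi-likelihood test, which is what "called" means below. Together these were 464 genes, or 3.56%. The largest increases included a brake on growth signalling, a glycogen regulator, an embryonic myosin and several genes of fatty acid handling, and the largest decrease belonged to Scd1, which makes monounsaturated fatty acids. More than a 2-fold change (over 1 on the log2 scale) was met by 120 of the genes called higher and by 35 of those called lower. The median log2 fold change of all genes tested was -0.01. Values of the 4 libraries of each group did not overlap for 415 of the 464 called genes, against 1336 of all genes tested (10.2%). With the spread estimated from the 8 libraries alone, 194 genes were higher and 63 lower, and 228 of the 464 calls were kept. The counts also depend on single libraries. Without WT diabetes replicate 2 they were 197 higher and 81 lower, and the number lower also fell by more than 1.5-fold without WT diabetes replicate 3 (100), WT unloading replicate 1 (85), replicate 2 (92) or replicate 3 (104).

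**Figure D1:**
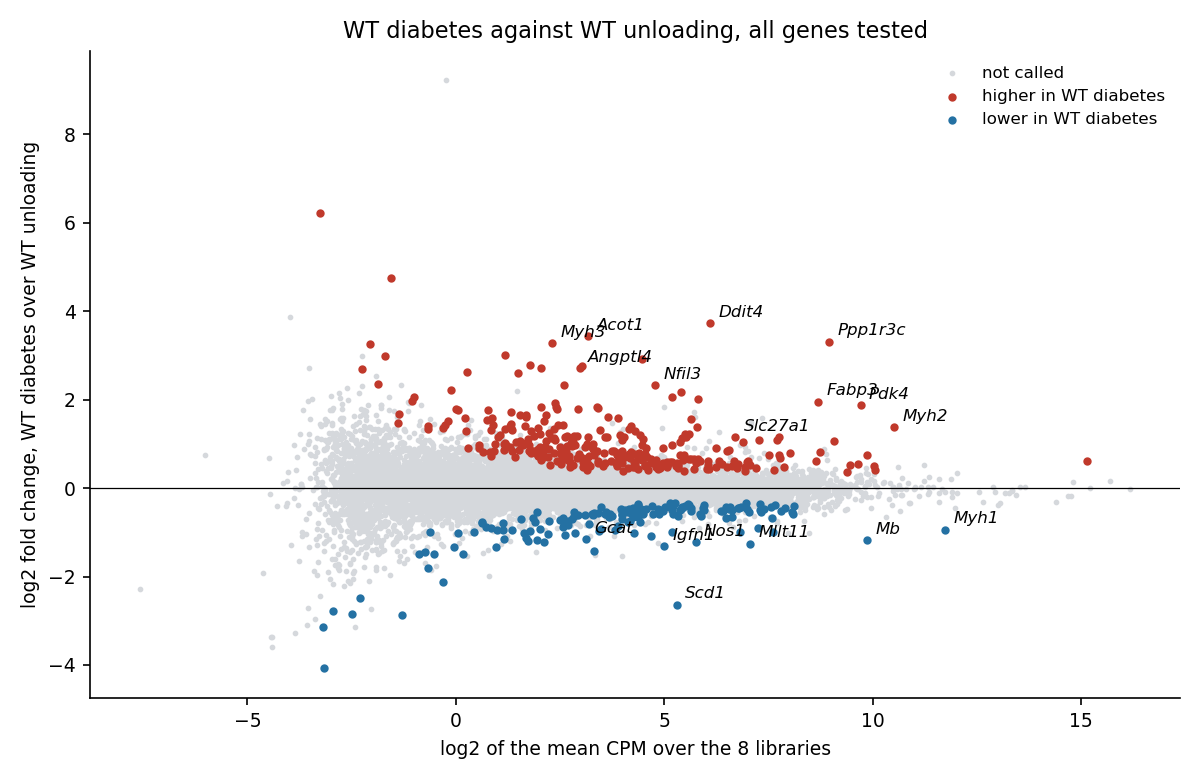
Each point is 1 of the 13048 genes tested, with the log2 of its mean CPM over the 8 libraries on the horizontal axis and its log2 fold change, WT diabetes over WT unloading, on the vertical axis. The 302 genes called higher in WT diabetes are red, the 162 called lower are blue, and the labelled genes are described in the text, from Ddit4 at 3.73 to Scd1 at -2.64.

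Genes for taking up and burning fatty acids were higher in WT diabetes. Of 45 measured genes of fatty acid uptake, oxidation and PPAR response, 20 were called higher and 0 lower, beside 2.31% higher among all genes. Their median log2 fold change was 0.48, against -0.01 over all genes tested, and 42 of the 45 had a positive value. Fabp3, the muscle carrier of fatty acids in the cytosol (chr4:130308738-130315463, mm10), had the smallest p of all genes in the contrast. It was at 657, 665, 599 and 701 CPM in WT diabetes, against 193, 204, 129 and 149.9 CPM in WT unloading and 269, 355, 329 and 335 CPM in WT controls. The 3 groups did not overlap, with WT diabetes above and WT unloading below the control level. The log2 fold change between diabetes and unloading was 1.96 ± 0.15 (SE), a 3.88-fold difference (adjusted p = 9.18e-09).

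Slc27a1 (FATP1), a fatty acid transporter of the fibre membrane (chr8:71568728-71587307), was at 120.3, 164, 138 and 153 CPM in WT diabetes, against 64.98, 70.1, 60.4 and 63.3 CPM in WT unloading and 57.01, 61.05, 57.9 and 60.1 CPM in controls. Every diabetic library was above every unloaded one, and unloading lay close to the control range (log2 fold change diabetes over unloading 1.15 ± 0.14, adjusted p = 5.74e-05). Acot1, a cytosolic acyl-CoA thioesterase and a classical PPAR-alpha target, had the second-largest increase among the genes named by size. It was at 11.5, 21.5, 19.97 and 12.99 CPM in WT diabetes, against 1.91, 2.16, 0.963 and 1.03 CPM in WT unloading (log2 fold change 3.43 ± 0.47, adjusted p = 0.000192). Its neighbour and near-identical copy Acot2, the mitochondrial enzyme, was at 15.97, 20.5, 14.5 and 13.8 CPM in WT diabetes, against 6.83, 5.896, 2.64 and 2.74 CPM in WT unloading (log2 fold change 1.83 ± 0.31, adjusted p = 0.00162), and the counting could split reads between the pair. Angptl4, a secreted inhibitor of lipoprotein lipase, varied widely among the diabetic libraries. It was at 8.899, 15.3, 4.37 and 25.8 CPM there, against 1.19, 1.91, 2.51 and 2.71 CPM in WT unloading, without overlap (log2 fold change 2.71 ± 0.46, adjusted p = 0.00129).

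The enzymes of the oxidation cycle itself showed smaller differences. Ech1, which isomerises unsaturated acyl chains, was at 255, 275, 257 and 294 CPM in WT diabetes, against 171, 171, 147 and 151 CPM in WT unloading (log2 fold change 0.76 ± 0.09, adjusted p = 6.61e-05). Acaa2, the mitochondrial thiolase of the last step, was at 174, 164, 109.6 and 190.4 CPM in WT diabetes, against 61.4, 82.01, 88.1 and 78.3 CPM in WT unloading and 123, 129, 125 and 116 CPM in controls. Unloading lay below every control here, and diabetes reached from just below to well above them (log2 fold change diabetes over unloading 1.04 ± 0.16, adjusted p = 0.000555). Hadhb, the beta subunit of the trifunctional protein of long-chain oxidation, was at 254, 280.2, 239 and 299 CPM in WT diabetes, against 173, 171, 161 and 160.2 CPM in WT unloading (log2 fold change 0.69 ± 0.09, adjusted p = 0.000192). Its partner subunit Hadha, named here after its values were seen because it shares the Hadhb promoter, was at 463, 497, 432 and 533 CPM in WT diabetes, against 336, 319, 305 and 301 CPM in WT unloading (log2 fold change 0.61 ± 0.09, adjusted p = 0.000592). The other 11 called members, with log2 fold changes between 0.41 and 1.33, included the fatty acid transporter Cd36 (0.75, adjusted p = 0.0193, lost without diabetes replicate 2 or unloading replicate 3 or 4, adjusted p up to 0.0765), the carnitine transferase Cpt1b (0.62, adjusted p = 0.00329) and the lipid droplet protein Plin5 (1.30, adjusted p = 0.0385, kept only without diabetes replicate 3 or unloading replicate 2, adjusted p otherwise up to 0.109). Among the 25 members not called was the nuclear receptor gene Ppara itself (log2 fold change 0.55, adjusted p = 0.202). Read against WT controls, the list's median log2 fold change was 0.56 for diabetes and 0.00 for unloading. The list's count of 20 ranged from 14 to 21 when single libraries were left out.

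**Figure D2:**
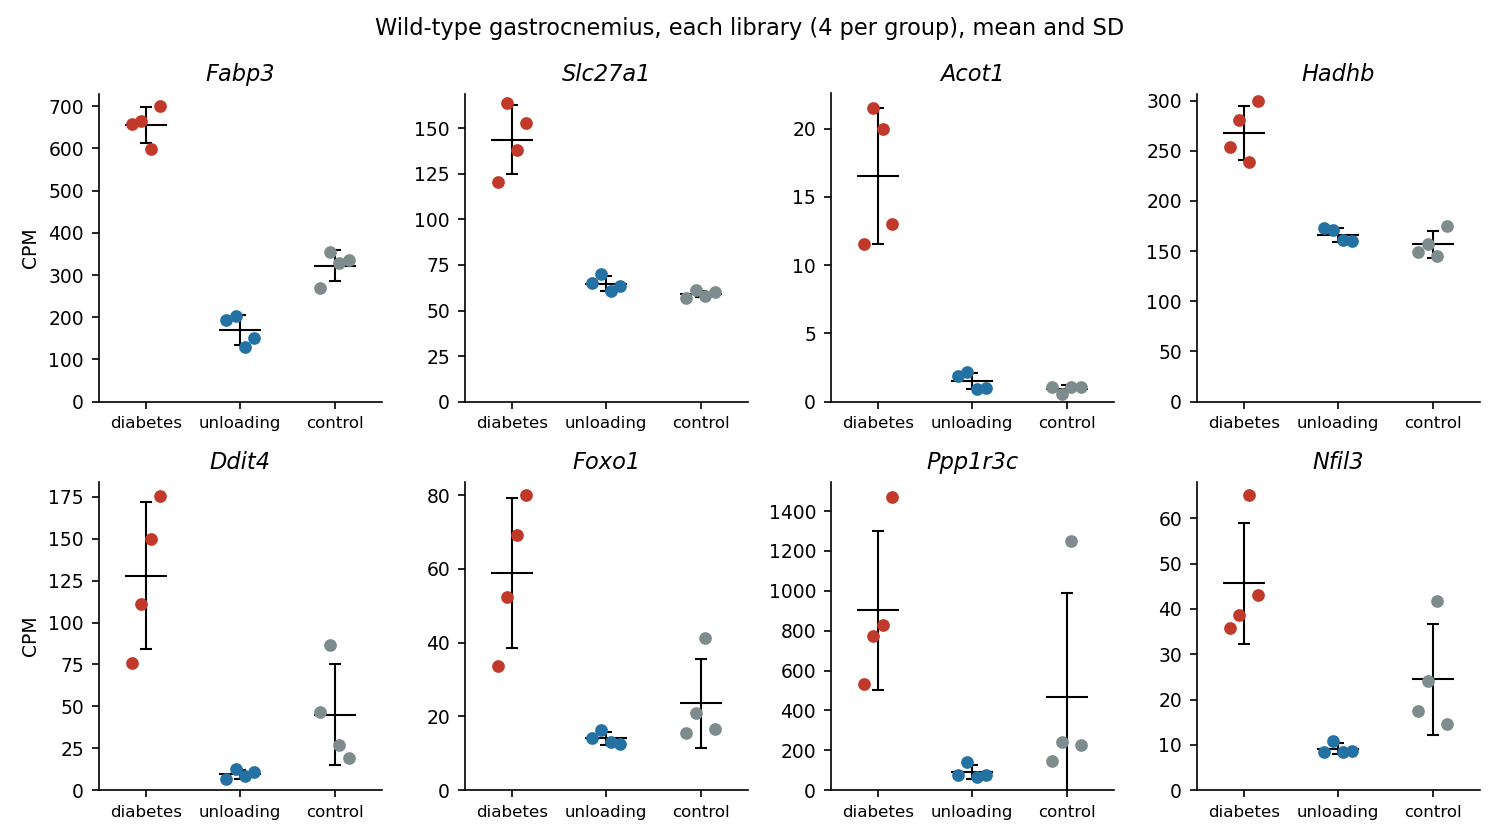
CPM of 8 genes in each WT library, 4 per group, with the mean and SD as a dash and bars, each panel on its own linear axis from 0. WT diabetes lies above WT unloading without overlap in all 8 panels, and for Fabp3, Ddit4, Foxo1, Ppp1r3c and Nfil3 the mean of WT unloading is below that of WT controls.

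The promoters of the genes described here were read from RefSeq windows of 250 bases before to 50 bases after the gene start (GRCm38.p6). Hadhb and Hadha are shown first because the pair starts 273 bases apart on opposite strands, so that their windows share 228 bases (capitals, chr5:30155003-30155230). The window below is that of Hadhb on the plus strand, chr5:30155003-30155302.
Hadhb: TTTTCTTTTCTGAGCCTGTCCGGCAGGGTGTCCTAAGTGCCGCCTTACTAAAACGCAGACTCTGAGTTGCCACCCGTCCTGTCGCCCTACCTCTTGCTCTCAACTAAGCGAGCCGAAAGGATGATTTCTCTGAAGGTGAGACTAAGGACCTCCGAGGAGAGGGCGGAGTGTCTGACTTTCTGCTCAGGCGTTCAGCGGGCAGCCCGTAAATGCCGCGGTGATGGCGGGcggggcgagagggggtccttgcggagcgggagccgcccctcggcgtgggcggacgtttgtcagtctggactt
Nfil3, described below, is shown because its window (minus strand, chr13:52980990-52981289) holds AGGTCA, the core letters read by nuclear receptors, written here in capitals on the opposite strand.
Nfil3: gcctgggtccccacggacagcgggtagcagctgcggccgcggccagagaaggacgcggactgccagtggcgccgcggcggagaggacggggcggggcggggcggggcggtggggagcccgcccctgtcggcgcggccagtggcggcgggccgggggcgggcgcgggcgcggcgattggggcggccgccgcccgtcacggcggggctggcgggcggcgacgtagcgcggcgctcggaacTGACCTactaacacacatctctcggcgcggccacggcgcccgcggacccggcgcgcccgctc
Ppp1r3c, also described below, is shown because its window (minus strand, chr19:36736555-36736854) holds the E-box CACGTG (capitals), the core letters bound by the clock proteins CLOCK and BMAL1 and by the glucose-sensing factor ChREBP.
Ppp1r3c: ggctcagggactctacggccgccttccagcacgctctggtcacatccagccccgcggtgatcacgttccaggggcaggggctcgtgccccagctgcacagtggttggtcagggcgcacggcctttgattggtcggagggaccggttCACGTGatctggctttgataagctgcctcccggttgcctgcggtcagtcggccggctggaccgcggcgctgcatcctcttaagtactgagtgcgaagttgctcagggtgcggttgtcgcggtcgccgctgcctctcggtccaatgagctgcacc
The same letters were counted in other promoters. On both strands, AGGTCA occurred in 15.2% of promoters of genes called higher, 16.1% of those called lower, 12.6% of those of all genes tested and 16.3% of all 32851 promoters of the table. CACGTG occurred in 5.16% of promoters of genes called higher, 11.3% of those called lower, 9.76% of those tested and 7.15% of all. A full PPAR element, here AGGTCA repeated after 1 base, occurred in 0 of the 310 promoters of genes called higher (233 genes had a window). It occurred in 5 of the 13225 promoters of genes tested and 13 of all. An exact match is so rare that 0 of 310 says nothing about PPAR binding. The FOXO site TGTTTAC occurred in 3.23% of promoters of genes called higher, 3.57% of those called lower, 2.59% of those tested and 3.65% of all. The clock-output motif TTATGNAA, read by NFIL3, occurred in 0.968% of promoters of genes called higher, 1.79% of those called lower, 2.08% of those tested and 3.38% of all.

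Genes that steer glucose away from oxidation and into or out of glycogen included members that were higher and members that were lower. In the list of 14 genes around pyruvate dehydrogenase and its kinases, 1 was called higher (Pdk4) and 1 lower (Mpc1, below). These compare with 2.31% and 1.24% of all genes, and the other 12 were not called (list median log2 fold change -0.01). The sister kinase genes Pdk1 (-0.02), Pdk2 (0.06) and Pdk3 (0.09) were among those not called. Pdk4, the kinase that switches off pyruvate dehydrogenase, was at 1126, 1215, 1006 and 1899 CPM in WT diabetes, against 538, 374, 208 and 314 CPM in WT unloading and 132, 73.7, 352 and 205 CPM in controls. The 2 conditions did not overlap (log2 fold change 1.87 ± 0.48, adjusted p = 0.0274), although the call ended when any 1 of diabetes replicates 2 and 4 or unloading replicates 2, 3 and 4 was left out (adjusted p up to 0.0858). Ppp1r3c (PTG), a scaffold that activates glycogen synthase, was at 535, 772, 831 and 1470 CPM in WT diabetes, against 76.9, 143, 67.3 and 76.8 CPM in WT unloading. Controls spread from 145 to 1250 CPM, all above unloading and 1 of them inside the diabetic range, and the log2 fold change between the conditions was 3.31 ± 0.60 (adjusted p = 0.00292). Tbc1d4 (AS160), the Akt substrate that holds GLUT4 vesicles inside the cell, was at 47.4, 69.9, 98.2 and 52.7 CPM in WT diabetes, against 42.4, 28.3, 26.8 and 17.1 CPM in WT unloading (log2 fold change 1.23 ± 0.21, adjusted p = 0.00162).

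The glycogen branching enzyme Gbe1 was the only one of 23 glucose uptake and glycogen genes called lower (1.24% of all genes). Ppp1r3c and Tbc1d4 were the only ones called higher (2.31% of all genes). Gbe1 was at 21.2, 19.9, 31.9 and 23.5 CPM in WT diabetes, against 78.3, 48.3, 36.2 and 30.7 CPM in WT unloading, with an overlap of 1 library in each direction (log2 fold change -1.004 ± 0.21, adjusted p = 0.00889). Gbe1 was not called with only the 8 libraries compared (adjusted p = 0.0859). The insulin-responsive glucose transporter Slc2a4 (GLUT4) was at 363, 283, 226 and 474 CPM in WT diabetes, against 490.4, 444, 475 and 455 CPM in WT unloading and 717, 659, 771 and 559 CPM in controls. Both conditions lay below every control, and their difference did not pass the test (log2 fold change -0.47 ± 0.15, adjusted p = 0.0881). It passed when diabetes replicate 4 was left out (adjusted p = 0.00753) and when a GC and length trend was removed (adjusted p = 0.0343). Mpc1, a subunit of the carrier that brings pyruvate into mitochondria, was lower (log2 fold change -0.41 ± 0.10, adjusted p = 0.0177, lost without diabetes replicate 2 or 3 or unloading replicate 4, adjusted p up to 0.0746). Of 16 glycolysis genes, 0 were called in either direction, beside 3.56% of all genes (median log2 fold change -0.03).

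Scd1, the stearoyl-CoA desaturase, an insulin-induced lipid synthesis gene of adipocytes and muscle, had the largest decrease among the genes named by size. It was at 9.502, 5.86, 9.07 and 18.9 CPM in WT diabetes, against 49.6, 89.9, 71.1 and 59.4 CPM in WT unloading and 96.5, 70.8, 34.7 and 102 CPM in controls. All 4 diabetic libraries were below every other WT library (log2 fold change diabetes over unloading -2.64 ± 0.53, adjusted p = 0.00524). It was the only called gene among 29 of lipid and sterol synthesis (0 higher and 1 lower, beside 2.31% and 1.24% of all genes). Adipocyte markers were not called in either direction (0 of 9, beside 3.56% of all genes). Their median log2 fold change was -0.62, with 6 of the 9 negative, while their summed level was 2204 to 3377 CPM in WT diabetes and 1372 to 3030 CPM in WT unloading, a range that overlapped. In the citric acid cycle, 1 of 15 genes was called, and it was higher (2.31% of all genes). That gene, Idh2, the mitochondrial NADP-dependent isocitrate dehydrogenase, was at 236, 299, 295 and 298 CPM in WT diabetes, against 152, 139, 141 and 97.98 CPM in WT unloading (log2 fold change 1.09 ± 0.17, adjusted p = 0.000759). Of 63 genes of oxidative phosphorylation encoded in the nucleus, 0 were called higher and 1 lower, beside 2.31% and 1.24% of all genes. The 1 called was the cytochrome oxidase subunit Cox7c (log2 fold change -0.54 ± 0.11, adjusted p = 0.00768), and the list median was -0.11. The call of Cox7c ended with the GC and length trend removed (adjusted p = 0.0655) and with only the 8 libraries compared (adjusted p = 0.0747).

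Several regulators that respond to insulin or glucocorticoids were higher in WT diabetes. Of 22 glucocorticoid-responsive genes, 6 were called higher and 0 lower (2.31% and 1.24% of all genes), with a median log2 fold change of 0.76, against -0.01 over all genes tested. Their median against WT controls was 0.91 for diabetes and 0.01 for unloading. Ddit4 (REDD1), an inhibitor of mTORC1 that glucocorticoids and energy stress induce (chr10:59949675-59951770), had the largest increase of the genes named by size. It was at 75.8, 111, 149.8 and 175 CPM in WT diabetes, against 6.55, 12.6, 8.37 and 10.99 CPM in WT unloading and 46.8, 86.5, 27.1 and 19.02 CPM in controls. Unloading lay below every control and diabetes overlapped only the highest control, and the difference between the conditions was 13.3-fold (log2 fold change 3.73 ± 0.58, adjusted p = 0.000555). Over control the log2 fold change was 1.51 in diabetes and -2.22 in unloading. Foxo1, a transcription factor that insulin keeps out of the nucleus, was at 33.7, 52.2, 69.2 and 80.1 CPM in WT diabetes, against 14.2, 16.4, 13.1 and 12.4 CPM in WT unloading and 15.5, 20.9, 41.3 and 16.6 CPM in controls. The 2 conditions did not overlap (log2 fold change diabetes over unloading 2.07 ± 0.42, adjusted p = 0.00567).

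Cebpb, a transcription factor induced by glucocorticoids and cyclic AMP, was at 56.1, 76.4, 55.99 and 64.5 CPM in WT diabetes, against 34.9, 28.6, 20.03 and 24.98 CPM in WT unloading, without overlap (log2 fold change 1.22 ± 0.28, adjusted p = 0.0129). Its relative Cebpd was at 49.6, 66.1, 172 and 68.7 CPM in WT diabetes, against 11.7, 31.6, 31.3 and 13.2 CPM in WT unloading (log2 fold change 2.02 ± 0.50, adjusted p = 0.0211). The call of Cebpd ended without diabetes replicate 3, the highest library, and without unloading replicate 1 or 4 (adjusted p up to 0.103). Pdk4 (above) and Errfi1, an inhibitor of the EGF receptor, were the remaining members, and the call of Errfi1 (log2 fold change 0.77 ± 0.22, adjusted p = 0.0456) held in 2 of the 8 fits without 1 library, those without diabetes replicate 1 and unloading replicate 1. Other widely used glucocorticoid targets were not called in the fit of all libraries. On the log2 scale Fkbp5 was at -0.02 (adjusted p = 0.985), Klf15 at 0.74 (adjusted p = 0.1101) and Tsc22d3 (GILZ) at 0.82 (adjusted p = 0.0624). With only the 8 libraries compared both Klf15 (adjusted p = 0.0425) and Tsc22d3 (adjusted p = 0.03295) were called, and Tsc22d3 was also called by DESeq2 (adjusted p = 0.02104) and with upper quartile scaling (adjusted p = 0.0452). For Fkbp5 the sign turned in 3 of the fits without 1 library. Pik3r1, the regulatory subunit of the kinase that relays insulin signals, was called higher with Foxo1 and Ddit4 among 34 genes of insulin and IGF signalling (log2 fold change 0.97 ± 0.27, adjusted p = 0.0473, kept only without diabetes replicate 1, adjusted p otherwise up to 0.157). In that list 3 genes were called higher and 0 lower, beside 2.31% and 1.24% of all genes.

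Nfil3, a transcriptional repressor of the clock output pathway (chr13:52967209-52982878), was at 35.8, 38.6, 65.2 and 43.01 CPM in WT diabetes, against 8.400, 10.9, 8.498 and 8.71 CPM in WT unloading and 17.4, 24.1, 41.7 and 14.6 CPM in controls. Every unloaded library was below every control, and the difference between conditions was 4.996-fold (log2 fold change 2.32 ± 0.32, adjusted p = 0.000203). It was the only one of 18 clock genes called, beside 3.56% of all genes. The core clock gene Arntl (log2 fold change -0.85, adjusted p = 0.591), its repressor Nr1d1 (-0.79, adjusted p = 0.244) and the output factor Dbp (-0.55, adjusted p = 0.592) were not. Arntl was far higher in diabetes replicate 3 than in its group, and its log2 fold change was -1.66 without that library and -0.34 without unloading replicate 1, neither of them called. That of Dbp was -0.87 without diabetes replicate 1 and -0.22 without diabetes replicate 3. The labels do not give the time of day of sampling.

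Of 25 genes induced early after contraction or hormone signals, 6 were called higher and 0 lower, beside 2.31% higher among all genes (median log2 fold change 0.49). Against WT controls the list's median log2 fold change was -0.03 for diabetes and -0.42 for unloading. Slc25a25, a calcium-sensitive ATP-magnesium carrier of the mitochondrion, was at 83.96, 67.6, 36.1 and 88.9 CPM in WT diabetes, against 23.9, 15.3, 11.03 and 11.2 CPM in WT unloading and 122, 113, 75.3 and 50.3 CPM in controls. Diabetes overlapped the controls, and unloading was below every other WT library (log2 fold change diabetes over unloading 2.17 ± 0.41, adjusted p = 0.00362). Zfp36, which speeds the decay of AU-rich mRNAs, was at 22.4, 22.7, 14.2 and 15.5 CPM in WT diabetes, 5.28, 6.27, 5.27 and 7.84 CPM in WT unloading and 17.6, 20.98, 11.97 and 11.7 CPM in controls (log2 fold change 1.60 ± 0.30, adjusted p = 0.00335). The orphan nuclear receptor Nr4a3 was at 9.39, 8.99, 3.12 and 2.61 CPM in WT diabetes, against 2.42, 0.329, 0.419 and 0.271 CPM in WT unloading, where replicate 1 alone was close to the diabetic range (log2 fold change 2.79 ± 0.66, adjusted p = 0.0167). Its call ended without diabetes replicate 2 or unloading replicate 2, 3 or 4 (adjusted p up to 0.0635). Btg2 had a log2 fold change of 1.16 (kept only without diabetes replicate 1 or unloading replicate 1, adjusted p otherwise up to 0.0984), Maff one of 1.10 (lost without diabetes replicate 3 or unloading replicate 1 or 4, adjusted p up to 0.0665) and Csrnp1 one of 0.97 (kept only without diabetes replicate 1 or 4 or unloading replicate 1, adjusted p otherwise up to 0.104). The count of 6 was 3 without diabetes replicate 2 or unloading replicate 2 or 3 and 2 without unloading replicate 4. Fos, the best known member of the group, was not called (log2 fold change 1.13, adjusted p = 0.464; 0.53 without diabetes replicate 3).

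**Figure D3:**
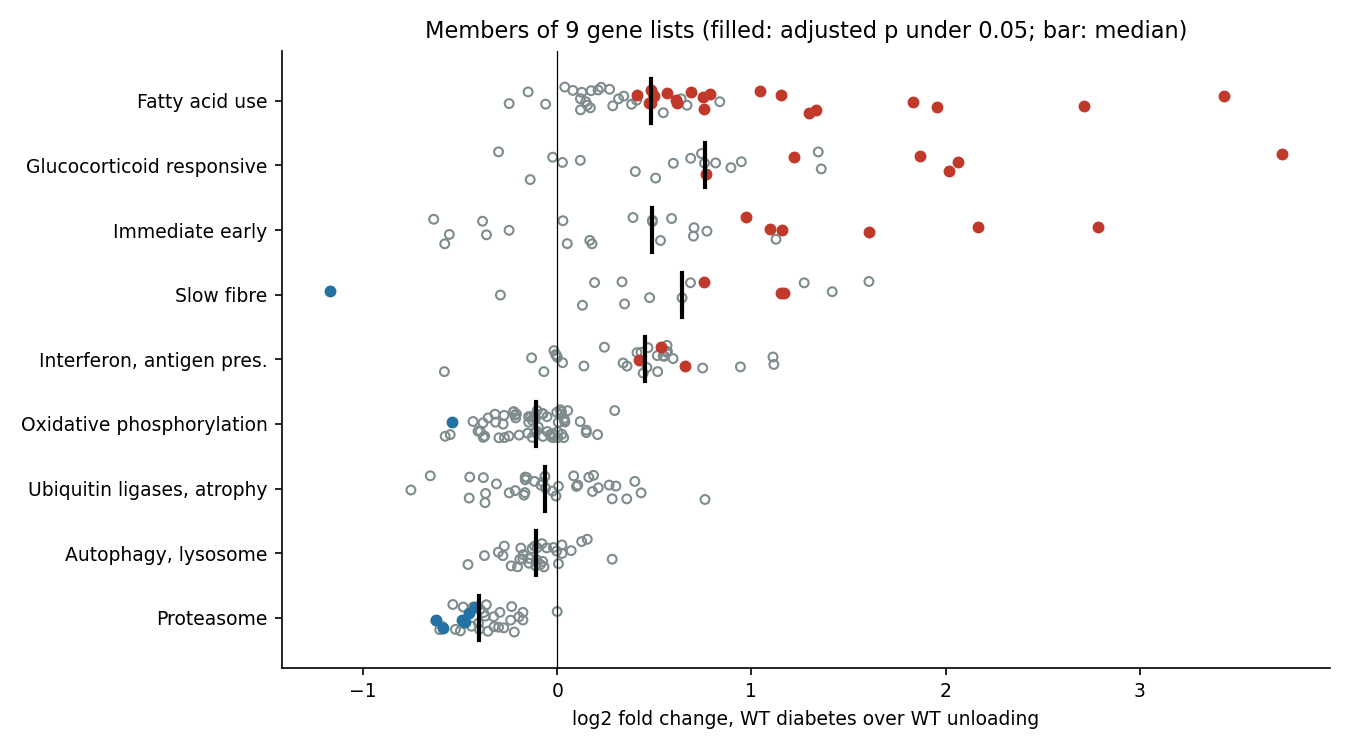
Log2 fold changes, WT diabetes over WT unloading, of the measured members of 9 gene lists, 1 circle per gene, filled where called higher (red) or lower (blue), with the median of each list as a black bar. Fatty acid genes lie mainly to the right (20 of 45 called higher), all 35 proteasome genes lie left of 0 (6 called), and none of the 37 ubiquitin ligase and atrophy genes is called.

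No member of the ubiquitin ligase and atrophy list or of the autophagy and lysosome list was called. Of 37 ubiquitin ligases and other atrophy genes, 0 were called in either direction, beside 3.56% of all genes. In the autophagy and lysosome list 0 of 32 were called (median log2 fold change -0.11). For lists of this size 0 lies close to the share of all genes. Fbxo32 was at 287, 583, 1216 and 425 CPM in WT diabetes, against 1047, 389.6, 211 and 213 CPM in WT unloading and 67.5, 116, 88.6 and 176 CPM in controls. The 2 conditions overlapped almost completely, since the highest values were those of diabetes replicate 3 and unloading replicate 1 (log2 fold change 0.43 ± 0.54, adjusted p = 0.758), and without diabetes replicate 3 the sign turned, to -0.11 (adjusted p = 0.951). Trim63 was at 279, 516, 941 and 647 CPM in WT diabetes, against 688, 310.5, 205 and 203 CPM in WT unloading and 168, 217, 174 and 214 CPM in controls (log2 fold change 0.76 ± 0.44, adjusted p = 0.401). Its log2 fold change was 0.45 without diabetes replicate 3 and 1.32 without unloading replicate 1, and that of Fbxo32 was 1.21 without unloading replicate 1, with none of these called. Fbxo30 (MUSA1), a ubiquitin ligase restrained by BMP signalling, was at 5.49, 6.16, 5.96 and 4.42 CPM in WT diabetes, against 11.2, 8.53, 5.63 and 4.72 CPM in WT unloading (log2 fold change -0.45 ± 0.26, adjusted p = 0.4100; -0.20 without unloading replicate 1). Overlapping libraries and large standard errors do not show that these genes were equal in the 2 conditions.

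All 35 proteasome genes had a negative log2 fold change, mostly small. Of these 35 measured subunits and regulators, 6 were called lower and 0 higher (1.24% of all genes were called lower), and 14 did not overlap between the groups, all of them lower in diabetes (4.99% of all genes). The median log2 fold change was -0.40. Read against WT controls it was 0.08 for diabetes and 0.43 for unloading. Psmc3, an ATPase of the 19S base, was at 206, 221, 209 and 226 CPM in WT diabetes, against 430.2, 295, 282 and 287 CPM in WT unloading and 259.6, 228, 259.6 and 231 CPM in controls. Unloading replicate 1 was far above the other 3, which still exceeded every diabetic and control library (log2 fold change diabetes over unloading -0.59 ± 0.13, adjusted p = 0.0109). Psmb2, a beta subunit of the 20S core, was at 44.8, 48.5, 45.9 and 46.7 CPM in WT diabetes, against 104, 62.00, 58.3 and 62.7 CPM in WT unloading (log2 fold change -0.63 ± 0.15, adjusted p = 0.0189). Without unloading replicate 1 neither was called (adjusted p = 0.0521 for Psmc3, and 0.103 with a log2 fold change of -0.39 for Psmb2). The other 4 called, with log2 fold changes between -0.49 and -0.43, were Psmb7 (kept only without diabetes replicate 1 or unloading replicate 3 or 4, adjusted p otherwise up to 0.146), Psmc1 (kept only without unloading replicate 2, 3 or 4, adjusted p otherwise up to 0.1698), Psma6 (kept only without unloading replicate 3 or 4, adjusted p otherwise up to 0.228) and Psmd12 (kept only without unloading replicate 3 or 4, adjusted p otherwise up to 0.229). Without unloading replicate 1 the number called was 0 and the median was -0.20, and the number called was 3 without diabetes replicate 1 or 3 or unloading replicate 2, and 2 without diabetes replicate 2 or 4. The precursor gene of ubiquitin Ubb, at 830.5, 929, 1240 and 992 CPM in WT diabetes, against 2325, 1549, 1246 and 1161 CPM in WT unloading, was also highest in unloading replicate 1 and was not called (log2 fold change -0.65 ± 0.24, adjusted p = 0.135; -0.40 without that replicate).

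Some myosin and slow-type sarcomere genes were called between the conditions, while the main fast myosin, Myh4, and the slow one, Myh7, were not. Myh2, the myosin heavy chain of oxidative fast (IIA) fibres (chr11:67171027-67197517), was at 1853, 1974, 2273 and 2299 CPM in WT diabetes, against 1024, 1008, 685 and 509 CPM in WT unloading and 2602, 2921, 2099 and 2453 CPM in controls. All unloaded libraries were below all others (log2 fold change diabetes over unloading 1.38 ± 0.21, adjusted p = 0.000533). Myh1, the IIX myosin, went the other way. It was at 1910, 2310, 2716 and 2405 CPM in WT diabetes, against 4060, 6530, 4211 and 3108 CPM in WT unloading and 4134, 3402, 5409 and 4450 CPM in controls, with every diabetic library below every other (log2 fold change diabetes over unloading -0.94 ± 0.17, adjusted p = 0.00292). Myh4, the IIB myosin that dominates this muscle in mice, was at 76646, 71346, 58308 and 87322 CPM in WT diabetes, against 64244, 79251, 70628 and 83059 CPM in WT unloading, which overlapped (log2 fold change -0.02 ± 0.18, adjusted p = 0.976). Myosin heavy chain genes share long near-identical stretches, so how their reads were split is uncertain. Of 14 fast fibre genes, Myh2 was the only one called higher and Myh1 the only one called lower (2.31% and 1.24% of all genes).

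Myh3, the embryonic myosin heavy chain that is normally seen in development and regenerating fibres, was at 5.42, 5.56, 19.6 and 5.098 CPM in WT diabetes, against 0.933, 1.54, 0.816 and 0.326 CPM in WT unloading and 1.29, 2.85, 2.94 and 3.06 CPM in controls. Diabetes replicate 3 stood apart, and the other 3 were still above every unloaded and control library (log2 fold change diabetes over unloading 3.28 ± 0.45, adjusted p = 0.000192; without that replicate 2.54). Its perinatal relative Myh8 was not called (log2 fold change 0.30, adjusted p = 0.522). Of 15 slow fibre genes, 3 were called higher and 1 lower (2.31% and 1.24% of all genes), with a median log2 fold change of 0.64. The other 11 were not called, among them the slow myosin heavy chain Myh7 (log2 fold change 0.64, adjusted p = 0.402). Myl3, the slow ventricular myosin light chain, was at 333, 242, 236 and 373 CPM in WT diabetes, against 91.7, 223, 133 and 80.5 CPM in WT unloading and 414, 464, 259.7 and 424 CPM in controls (log2 fold change diabetes over unloading 1.17 ± 0.28, adjusted p = 0.01703). Casq2, the cardiac and slow-fibre calsequestrin, was at 14.8, 22.2, 30.2 and 22.5 CPM in WT diabetes, against 13.2, 11.1, 10.1 and 5.94 CPM in WT unloading (log2 fold change 1.15 ± 0.24, adjusted p = 0.00728). Actn2, the Z-disc alpha-actinin of all fibre types, was the third (log2 fold change 0.76 ± 0.18, adjusted p = 0.01695).

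Tnni1, the slow troponin I, was at 95.1, 61.4, 81.3 and 85.5 CPM in WT diabetes, against 17.8, 64.1, 17.96 and 6.18 CPM in WT unloading, where replicate 2 reached the diabetic range (log2 fold change 1.61 ± 0.52, adjusted p = 0.0885), and it passed without that replicate (adjusted p = 0.00823). Without unloading replicate 2 the number of slow fibre genes called higher was 6, and without unloading replicate 4 it was 1. The calls of Myl3 and Actn2 each ended when any of 3 libraries was left out. For Myl3 these were diabetes replicate 4 and unloading replicates 1 and 4 (adjusted p up to 0.0658), and for Actn2 diabetes replicate 3 and unloading replicates 3 and 4 (adjusted p up to 0.0772). The single slow fibre gene called lower was Mb, myoglobin, the oxygen store of oxidative fibres. It was at 735, 517, 263 and 785 CPM in WT diabetes, against 1264, 1451, 1262 and 1206 CPM in WT unloading and 1320, 1486, 1344 and 1451 CPM in controls. Diabetes replicate 3 was the lowest, and all 4 diabetic libraries lay below every other WT library (log2 fold change diabetes over unloading -1.17 ± 0.23, adjusted p = 0.00397). With only the 8 libraries compared it was not called (adjusted p = 0.0578). Acta1, the skeletal muscle actin and the most abundant called gene, was at 44360, 46360, 33982 and 48128 CPM in WT diabetes, against 24622, 26514, 28013 and 34342 CPM in WT unloading and 56556, 57998, 68743 and 51102 CPM in controls. One library of each condition overlapped (log2 fold change diabetes over unloading 0.61 ± 0.16, adjusted p = 0.0277), and the call held only without diabetes replicate 3 or unloading replicate 4, ending without any other single library (adjusted p up to 0.0861).

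**Figure D4:**
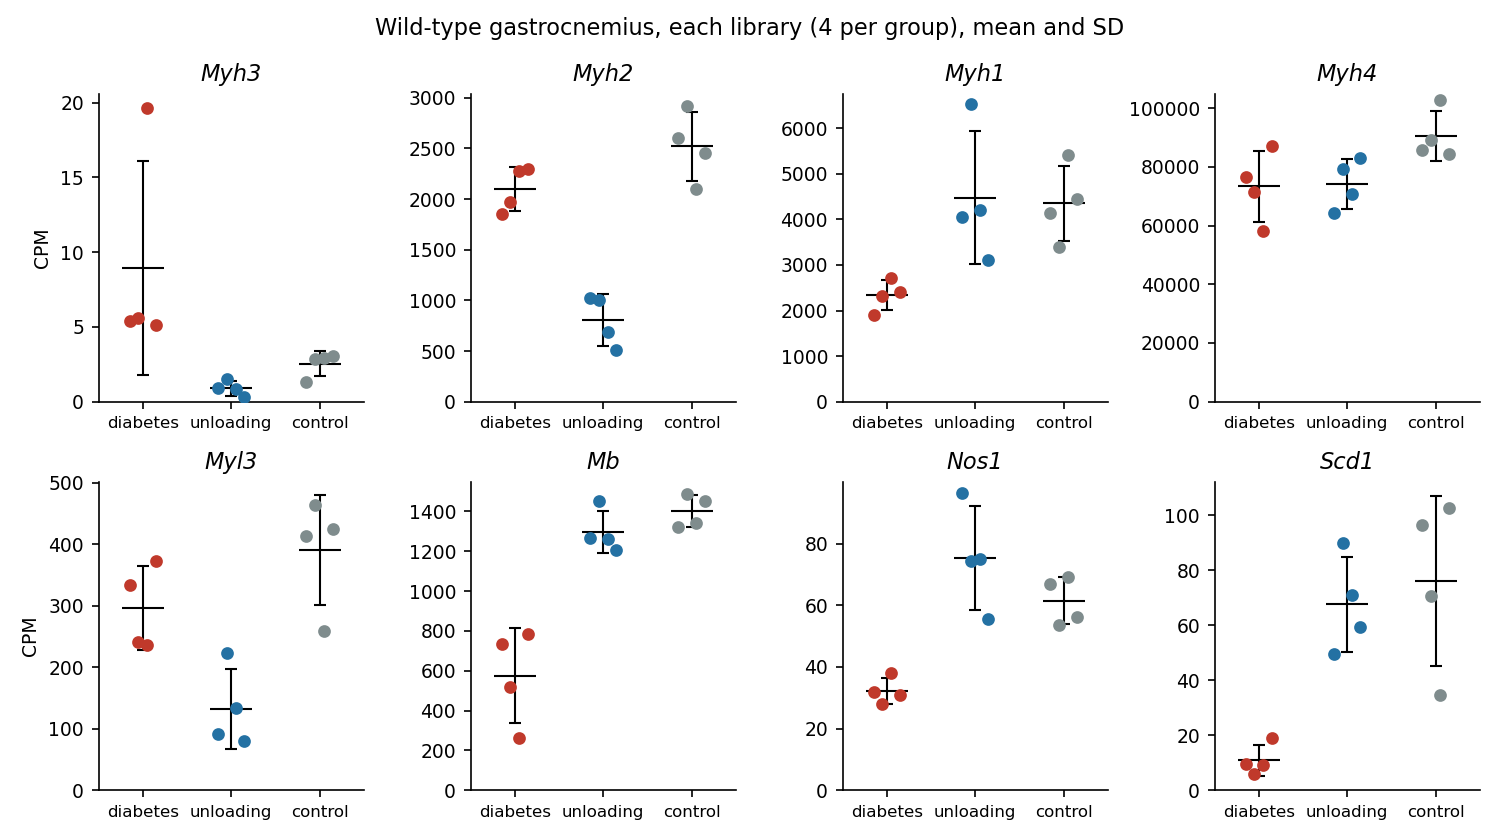
CPM of 8 genes in each WT library, 4 per group, with the mean and SD as a dash and bars, each panel on its own linear axis from 0. Myh3, Myh2 and Myl3 are higher and Myh1, Mb, Nos1 and Scd1 lower in WT diabetes than in WT unloading without overlap, while the 2 conditions overlap for Myh4.

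Of 23 load-sensing and Z-disc genes, 0 were called higher and 2 lower, beside 2.31% higher and 1.24% lower among all genes. Nos1, the neuronal nitric oxide synthase anchored to dystrophin at the fibre membrane, was at 31.9, 27.9, 37.9 and 30.7 CPM in WT diabetes, against 96.5, 74.3, 74.9 and 55.5 CPM in WT unloading and 66.9, 53.6, 69.03 and 56.2 CPM in controls. Diabetes was below every other WT library (log2 fold change diabetes over unloading -1.23 ± 0.18, adjusted p = 0.000398). Igfn1, a Z-disc protein with immunoglobulin-like domains, was at 21.3, 17.6, 21.6 and 12.8 CPM in WT diabetes, against 59.97, 33.8, 43.3 and 45.1 CPM in WT unloading and 9.39, 5.34, 3.28 and 6.77 CPM in controls (log2 fold change diabetes over unloading -1.31 ± 0.36, adjusted p = 0.0388). Both conditions lay above control, and the call held only in the fit without unloading replicate 2 (adjusted p up to 0.119 when another library was left out). Csrp3 (MLP), a Z-disc sensor of stretch, was at 64.5, 138, 175 and 69.9 CPM in WT diabetes, against 147, 19.8, 10.4 and 7.79 CPM in WT unloading, where replicate 1 alone lay in the diabetic range. It was not called (log2 fold change 1.27 ± 0.60, adjusted p = 0.2801), but was without unloading replicate 1, at 3.14 (adjusted p = 0.000289). Its Z-disc neighbour Ankrd2, also load-sensitive, was at 170.4, 229.9, 282 and 141 CPM in WT diabetes, against 244, 77.03, 30.9 and 31.4 CPM in WT unloading (log2 fold change 1.10 ± 0.44, adjusted p = 0.185; without unloading replicate 1, 2.15 and adjusted p = 0.00129).

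Chrna2, a neuronal nicotinic receptor subunit outside the neuromuscular list, was at 3.73, 4.45, 2.84 and 5.01 CPM in WT diabetes, against 0.488, 1.07, 0.209 and 0.163 CPM in WT unloading, without overlap (log2 fold change 3.02 ± 0.56, adjusted p = 0.00329). Of 22 denervation and neuromuscular junction genes, 1 was called, lower in diabetes (1.24% of all genes). This was Myod1, the myogenic transcription factor, at 8.13, 8.45, 7.38 and 6.798 CPM in WT diabetes, against 25.9, 9.61, 10.6 and 12.7 CPM in WT unloading and 19.4, 20.2, 12.98 and 21.5 CPM in controls (log2 fold change diabetes over unloading -0.93 ± 0.24, adjusted p = 0.0242). Its call ended without diabetes replicate 3 or 4 or unloading replicate 1, the highest library (adjusted p up to 0.165; log2 fold change -0.51 without it). Tead4, the Hippo-pathway factor expressed during myogenic differentiation, was at 2.43, 2.76, 1.48 and 2.72 CPM in WT diabetes, against 5.58, 4.93, 3.94 and 6.86 CPM in WT unloading (log2 fold change -1.18 ± 0.22, adjusted p = 0.00362). Sox4, another developmental transcription factor, was at 4.24, 23.03, 21.1 and 8.16 CPM in WT diabetes, against 2.59, 1.46, 1.61 and 2.71 CPM in WT unloading, with diabetes replicates 2 and 3 the highest and no overlap (log2 fold change 2.76 ± 0.53, adjusted p = 0.00369). The remaining genes named by size were Fam107a, Doc2b, Mchr1, Snhg5 and Oscp1. Fam107a had a log2 fold change of 2.71 (lost without unloading replicate 1 or 2, adjusted p up to 0.0517) and Doc2b one of 2.60 (lost without diabetes replicate 4 or unloading replicate 3 or 4, adjusted p up to 0.0582). The melanin-concentrating hormone receptor gene Mchr1 was at -1.23 and was called in all 8 fits without 1 library. Snhg5, a small nucleolar RNA host gene, was at -1.20 (kept only without diabetes replicate 2 or unloading replicate 3 or 4, adjusted p otherwise up to 0.136) and Oscp1 at -1.16 (kept only without diabetes replicate 4 or unloading replicate 4, adjusted p otherwise up to 0.0963). Rab15, a small GTPase of endosomal recycling, was at 8.95, 11.4, 11.9 and 7.800 CPM in WT diabetes, against 3.54, 2.94, 0.565 and 0.841 CPM in WT unloading (log2 fold change 2.33 ± 0.35, adjusted p = 0.000489).

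Among the genes lower in WT diabetes, the pair of cold-inducible RNA-binding proteins stood above control in both conditions and higher in unloading. Cirbp was at 14.8, 17.01, 15.2 and 17.9 CPM in WT diabetes, against 54.5, 29.4, 28.5 and 26.5 CPM in WT unloading and 8.61, 8.64, 9.76 and 12.3 CPM in controls. No groups overlapped, and unloading replicate 1 was far above its group (log2 fold change diabetes over unloading -1.09 ± 0.21, adjusted p = 0.00369). Without that replicate the log2 fold change was -0.79 (adjusted p = 0.0184), and without diabetes replicate 3 as well it was not called (adjusted p = 0.0547). Rbm3, its close relative, named after its values were seen, was at 69.99, 73.4, 81.5 and 76.8 CPM in WT diabetes, against 137, 169.5, 164 and 127 CPM in WT unloading and 42.8, 49.3, 51.97 and 57.01 CPM in controls. The conditions again did not overlap (log2 fold change diabetes over unloading -0.99 ± 0.14, adjusted p = 0.000192). Body and muscle temperature are not given in the labels.

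Gcat, a mitochondrial enzyme of threonine breakdown, was at 4.91, 4.64, 4.43 and 7.603 CPM in WT diabetes, against 11.6, 10.1, 13.9 and 12.8 CPM in WT unloading and 14.9, 12.4, 9.34 and 12.2 CPM in controls. All diabetic libraries lay below the rest (log2 fold change diabetes over unloading -1.16 ± 0.18, adjusted p = 0.000555). Mthfd2, the mitochondrial folate enzyme and a target of ATF4, was at 1.85, 2.05, 1.94 and 2.200 CPM in WT diabetes, against 6.49, 3.37, 3.94 and 3.82 CPM in WT unloading (log2 fold change -1.13 ± 0.25, adjusted p = 0.0109). Without unloading replicate 1, the highest, its adjusted p was 0.0557. In the list of 27 integrated stress and unfolded protein response genes it was called lower together with the transcription factor Atf5 (kept only without diabetes replicate 4 or unloading replicate 4, adjusted p otherwise up to 0.139) and the lipoprotein receptor Vldlr. In that list 0 were called higher, and of all genes 1.24% were called lower and 2.31% higher. Vldlr was at 119.9, 126, 154 and 119 CPM in WT diabetes, against 379.7, 253, 199.6 and 202 CPM in WT unloading and 110.3, 121, 89.5 and 132 CPM in controls. Diabetes stayed near control while unloading was above it (log2 fold change diabetes over unloading -0.99 ± 0.19, adjusted p = 0.00362). Without unloading replicate 1 the stress list had 1 gene called lower. Of 21 genes of branched-chain amino acid breakdown, 2 were called lower and 0 higher, beside 1.24% and 2.31% of all genes. The 2 were the dehydrogenase subunit Bckdhb (-0.52, lost without diabetes replicate 1 or 2 or unloading replicate 1, adjusted p up to 0.0704) and isovaleryl-CoA dehydrogenase, Ivd (-0.59, kept only without diabetes replicate 4, adjusted p otherwise up to 0.138), both as log2 fold changes. Mllt11, a small protein first described in leukaemia fusions, was at 93.2, 84.9, 56.7 and 78.5 CPM in WT diabetes, against 317, 144, 135 and 154 CPM in WT unloading, with unloading replicate 1 more than 2-fold above the rest of its group (log2 fold change -1.26 ± 0.21, adjusted p = 0.00112). It was -0.88 without that replicate and still called.

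Few chaperone and antioxidant genes were called. The inducible heat shock protein genes Hspa1a and Hspa1b, which are near-identical copies, were both higher. Of 26 chaperone genes 1 other was called, also higher (2.31% of all genes). Hspa1a was at 5.93, 8.24, 13.5 and 5.49 CPM in WT diabetes, against 3.61, 2.75, 1.53 and 1.33 CPM in WT unloading and 5.91, 6.03, 5.46 and 4.27 CPM in controls, so that unloading was below every control (log2 fold change diabetes over unloading 1.84 ± 0.31, adjusted p = 0.00162). Cryab, the small heat shock protein of the Z-disc, was at 564, 573, 555 and 485 CPM in WT diabetes, against 425, 342, 230.2 and 249 CPM in WT unloading (log2 fold change 0.81 ± 0.19, adjusted p = 0.0174; up to 0.0664 without unloading replicate 3 or 4). Among 29 antioxidant and metallothionein genes, 1 was called higher and 1 lower, beside 2.31% and 1.24% of all genes (median log2 fold change -0.06). Cat, the peroxisomal catalase, was at 87.2, 122, 79.5 and 107 CPM in WT diabetes, against 68.1, 54.8, 42.2 and 46.4 CPM in WT unloading and 37.00, 39.99, 38.5 and 43.1 CPM in controls (log2 fold change diabetes over unloading 0.90 ± 0.19, adjusted p = 0.00643). The cytosolic superoxide dismutase Sod1 was at 125, 131, 133 and 128 CPM in WT diabetes, against 253, 178, 150.2 and 169 CPM in WT unloading. It was lower in diabetes (log2 fold change -0.54 ± 0.13, adjusted p = 0.0216). The call ended without diabetes replicate 2 or 4 or unloading replicate 1 (adjusted p up to 0.117). Of 58 ribosomal protein genes, 2 were called higher, beside 2.31% of all genes. Rps2, 1 of them, was at 999.7, 872, 988 and 941 CPM in WT diabetes, against 598, 706, 662 and 651 CPM in WT unloading (log2 fold change 0.54 ± 0.11, adjusted p = 0.00587). The list's median was 0.18, and 20 of the 58 were higher in diabetes without overlap, against 5.25% of all genes. In Notch2-mKO muscle the median of the same contrast was 0.02, and 0 of these genes were called.

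Markers of cells other than fibres were measured in the same libraries. Of the endothelial markers 3 of 20 were called, all higher, and of the macrophage and leukocyte markers 2 of 17, all higher, beside 2.31% of all genes. Of 13 pericyte and smooth muscle markers 2 were called higher, and of 14 fibroblast and progenitor markers 1. All 5 red blood cell markers had negative values that were not called (median log2 fold change -0.88), with a summed level of 174 to 232 CPM in WT diabetes and 213 to 613 CPM in WT unloading. The summed endothelial level was 589.5 to 638 CPM in WT diabetes, 518 to 624 CPM in WT unloading and 628 to 736 CPM in WT controls. The summed macrophage and leukocyte level was 71.7 to 88.7 CPM in WT diabetes, 55.2 to 72.7 CPM in WT unloading and 81.1 to 92.6 CPM in controls. Sox17, an arterial endothelial transcription factor, was at 3.45, 3.296, 3.89 and 4.01 CPM in WT diabetes, against 2.04, 1.77, 2.09 and 2.14 CPM in WT unloading (log2 fold change 0.87 ± 0.21, adjusted p = 0.01897; up to 0.0673 without diabetes replicate 4 or unloading replicate 2). Cd163, the haemoglobin scavenger receptor of resident macrophages, was at 5.75, 6.93, 7.94 and 9.07 CPM in WT diabetes, against 3.78, 4.66, 4.67 and 4.61 CPM in WT unloading (log2 fold change 0.75 ± 0.16, adjusted p = 0.00775). The macrophage and leukocyte markers were mixed in sign, with 10 of 17 positive and 7 negative (median log2 fold change 0.29). In Notch2-mKO muscle their median for the same contrast was -0.18, with 1 called higher and 1 lower. The count of endothelial markers was 0 without unloading replicate 2 and 1 without diabetes replicate 2, 3 or 4 or unloading replicate 1 or 4. The part of these cells in the gene lists above was not tested. The junction genes Pecam1 (log2 fold change 0.18, adjusted p = 0.649) and Cdh5 (0.09, adjusted p = 0.862), which define the endothelium, were not called.

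Of 32 interferon and antigen presentation genes, 3 were called higher and 0 lower, beside 2.31% higher among all genes (median log2 fold change 0.45), among them H2-K1 and B2m, the class I light chain (kept only without diabetes replicate 2, adjusted p otherwise up to 0.126). The count was 1 without diabetes replicate 1, 3 or 4 or unloading replicate 2 or 3. Against WT controls the list's median log2 fold change was 0.03 for diabetes and -0.44 for unloading. H2-K1, a class I heavy chain, was at 58.5, 53.2, 74.6 and 70.4 CPM in WT diabetes, against 49.9, 36.01, 40.5 and 36.1 CPM in WT unloading (log2 fold change 0.66 ± 0.15, adjusted p = 0.0128). Of 42 collagen and matrix genes, 1 was called higher and 0 lower, near the 2.31% and 1.24% of all genes, and of 16 tendon and cartilage matrix genes 0 were called. Both lists were low against WT controls in each condition, with medians of -0.79 in diabetes and -0.98 in unloading for collagen and matrix, and -1.27 in diabetes and -1.46 in unloading for tendon and cartilage. The tendon cell markers moved with them, at a summed 87.4 to 146 CPM in WT diabetes, 68.1 to 144 CPM in WT unloading and 292 to 337 CPM in WT controls, and their part in those medians was not tested.

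Notch2, the receptor gene floxed in these mice, was at 1.74, 2.18, 3.18 and 2.004 CPM in WT diabetes, against 2.02, 1.34, 1.97 and 1.71 CPM in WT unloading and 1.83, 1.76, 1.87 and 1.92 CPM in controls (log2 fold change diabetes over unloading 0.38 ± 0.23, adjusted p = 0.447). Without diabetes replicate 3 the log2 fold change was 0.17. Of 30 Notch pathway genes, 1 was called, a share near the 3.56% of all genes. It was Notch4, the receptor of endothelial cells. Its level was 7.81, 9.44, 10.2 and 11.5 CPM in WT diabetes, against 5.05, 7.19, 5.27 and 5.24 CPM in WT unloading (log2 fold change 0.78 ± 0.20, adjusted p = 0.0285). Its call ended with the GC and length trend removed (adjusted p = 0.0568). It held in 2 of the 8 fits without 1 library, those without diabetes replicate 1 and unloading replicate 2 (adjusted p up to 0.0903). Targets of the pathway such as Hes1 (log2 fold change -0.37, adjusted p = 0.447) and Heyl (-0.53, adjusted p = 0.361) were not called.

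The same contrast in Notch2-mKO muscle, which shares no library with the WT contrast, gave 254 genes higher (1.95%) and 146 lower (1.12%), 400 in all (3.07%). In mKO muscle Notch2 itself was at 1.697, 2.16, 1.15 and 2.12 CPM in diabetes, against 1.47, 1.38, 1.58 and 1.29 CPM in unloading, and a count over the whole gene in whole tissue does not single out the deleted stretch or the fibres. Of the 464 genes called in WT, 232 (50%) were also called in Notch2-mKO, which is 58.0% of the 400, and these 232 had the same sign in both. The sign was shared by 460 of the 464 (99.1%), against 71.5% of all genes tested. The median size of the change in these genes was 0.78 on the log2 scale in WT, where they were chosen, and 0.63 in Notch2-mKO. The test of the difference between genotypes called 0 genes in edgeR and 0 in DESeq2 (239 at an unadjusted p under 0.05, smallest adjusted p = 0.9999).

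In Notch2-mKO the log2 fold change of Fabp3 was 1.99 (adjusted p = 6.51e-09), that of Slc27a1 1.20 (adjusted p = 1.99e-05) and that of Ddit4 3.45 (adjusted p = 0.00104). Fatty acid genes were called higher for 22 of 45 (1.95% of all genes) and lower for 0, and proteasome genes lower for 5 of 35 (1.12% of all genes, median -0.38). Some list medians were smaller in Notch2-mKO, a difference that was not tested. Ribosomal protein genes had a median of 0.02 (0.18 in WT) and branched-chain breakdown genes one of 0.004 (-0.17 in WT), with 0 called in either list. Myh2 was at 1.21 (adjusted p = 0.00177), Myh1 at -0.92 (adjusted p = 0.003303) and Myh3 at 3.20 (adjusted p = 0.0002095), all on the log2 scale. Mb was at -0.69 (adjusted p = 0.0993), and its difference between the genotypes did not pass the test.

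**Figure D5:**
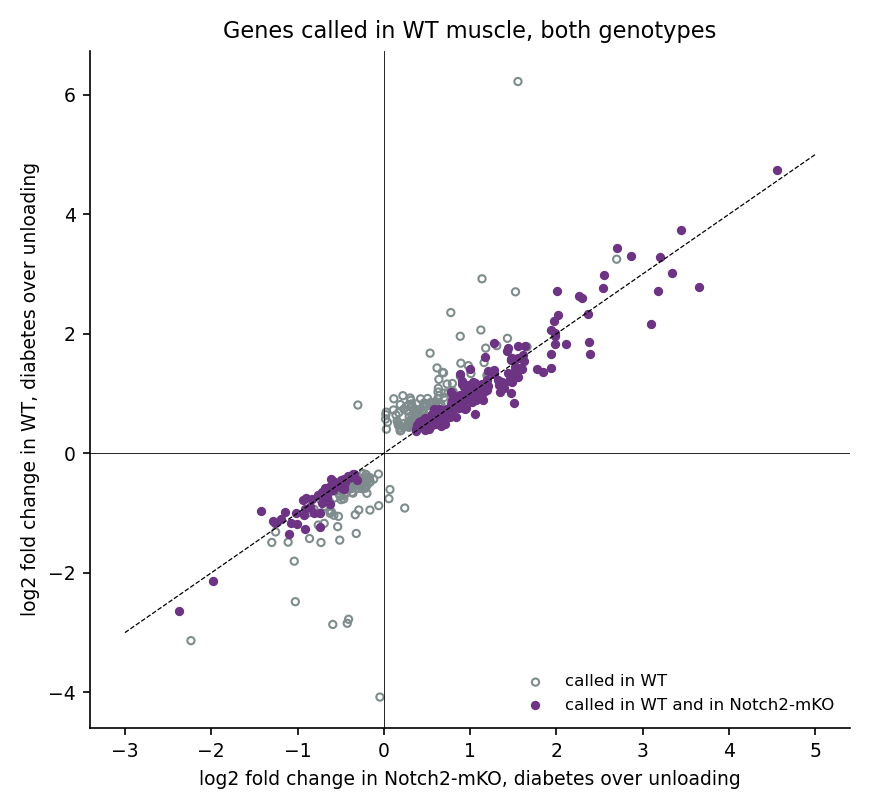
Each circle is 1 of the 464 genes called in WT muscle, with its log2 fold change, diabetes over unloading, in Notch2-mKO on the horizontal axis and in WT on the vertical axis, and a dashed line of equal values. Filled circles are the 232 also called in Notch2-mKO, and 460 of the 464 have the same sign on both axes.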

How the data were processed

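RNA from gastrocnemius muscle was sequenced in 24 libraries, 4 in each of 6 groups. The deposited tables hold estimated counts per RefSeq gene model (36172 models, raw columns per the file headers) and values the authors normalised, which are log2 values relative to controls per the file headers and the values and were not used in any test. The build is mm10 per the submitters' processing notes, and which aligner and counter were used is not stated in the labels or headers. No model lies on chromosome M (0), and 454 models share a symbol. Strand use in counting is not stated, so overlapping genes cannot be told apart.

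Expected counts were rounded to whole numbers and fitted together for all 24 libraries, with 1 coefficient per group, in edgeR 4.0.16 (R 4.3.3; TMM scaling, filterByExpr, quasi-likelihood F test, 13048 genes, 18 residual degrees of freedom), with Benjamini-Hochberg adjustment over all genes and a threshold of 0.05. Pooling 6 groups gives 1 estimate of the spread. The SE is the log2 fold change divided by the root of F, and the biological coefficient of variation was 19.97%. CPM values are TMM-scaled. The genes named are the 12 largest called changes in each direction that average 2 CPM or more and do not overlap, Notch2, Fbxo32, Trim63 and Fbxo30, and up to 6 members of each list by p. Hadha, Rbm3, Acot2, Myh4, Myh7, Ppara, Cd36, Cpt1b, Plin5, Ucp2, Acadm, Fkbp5, Klf15, Tsc22d3, Arntl, Dbp, Fos, Pecam1, Cdh5 and Hes1 were named after their values were seen. The members and gene lists were chosen with earlier results of these data known. Alternatives were other scalings (RLE, upper quartile), no filter on low counts, only the 8 libraries compared, counts halved, removal of a GC and length trend, a replicate block, DESeq2 1.42.0, and each library left out. The scripts were tested on simulated data. Promoter windows are RefSeq sequences of GRCm38.p6. One gene is not reported here.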

Additional observations from a re-analysis of the deposited data

Results flagged for a closer look

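In groups of 4 libraries, a value far from the other 3 was looked for in both conditions (Dixon's criterion). The search covered 104 of the genes named (208 groups), and 11 were found, where chance gives about 1 in 20. Of these, 5 were in WT unloading replicate 1. Its Mllt11 level was 316.8 CPM, against 134.9 to 153.9 in the other unloaded libraries. Its Cirbp level was 54.45 CPM, against 26.5 to 29.36. The proteasome subunits Psmc3 and Psmb2 were at 430.2 CPM, against 282.4 to 295.5, and at 104.1 CPM, against 58.27 to 62.66. Cd163 was low there, at 3.776 CPM, against 4.612 to 4.668. In WT unloading replicate 2, Nfil3 was at 10.93 CPM, against 8.4 to 8.708, and Notch4 at 7.19 CPM, against 5.049 to 5.275.

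In WT diabetes replicate 3, Myh3 was at 19.65 CPM, against 5.098 to 5.564 in the other diabetic libraries, and the core clock gene Arntl at 11.02 CPM, against 2.547 to 2.916. In WT diabetes replicate 1, Idh2 was low at 235.5 CPM, against 295.1 to 298.9, and Klf15 was low at 26.05 CPM, against 40.41 to 42.99.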

How the results depend on the processing

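Main counts were 302 genes higher and 162 lower in WT diabetes. With only the 8 libraries compared they were 194 and 63, and with WT diabetes replicate 3 and WT unloading replicate 1 both left out, a choice made after seeing the data, 169 and 49. DESeq2 called 250 lower. Leaving out 1 library each gave 197 to 321 higher and 81 to 147 lower. Proteasome genes called lower, 6 in the main fit, were 0 with only the 8 libraries, 0 with both libraries left out, 3 with the GC and length trend removed and 0 to 8 with 1 library left out. The fit with replicate number as a block gave 286 higher and 136 lower, 395 of the 464 calls were shared, and 3 proteasome genes were called. Same-numbered WT libraries did not deviate together (correlations of -0.21, 0.01, -0.11 and 0.14), and not every library correlated best with its own number. So few correlations cannot show whether the numbers mark a shared batch or handling. Of the 81 called genes among the 104 checked, 45 were called in all 8 fits with a library left out, 74 were called with the GC and length trend removed, and 0 changed sign. Among the 104 genes checked, some that were not called changed sign, as follows on the log2 scale, and the cause was not tested. Fbxo32 ran from -0.11 (without WT diabetes replicate 3) to 1.21 and Myh4 from -0.11 to 0.079 (highest without WT diabetes replicate 3; 0.016 and 0.041 without WT unloading replicates 2 and 4) when 1 library was left out. Fkbp5 ran from -0.26 to 0.31, above 0 without WT diabetes replicate 1 or 2 or WT unloading replicate 1. With both libraries left out Myh4 was at 0.030 and Fkbp5 at 0.0898, and with upper quartile scaling Fkbp5 was at 0.0040. The biological coefficient of variation was 19.97%.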
